A study of Mus musculus with 56 samples.

Results

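The 8 keratin genes *Krt8*, *Krt18*, *Krt19*, *Krt7*, *Krt5*, *Krt14*, *Krt17* and *Krt15* were followed in sorted thymic epithelial cells (TECs) of mice before, during and after the involution of pregnancy. They were chosen by name as the simple and the basal keratins of TECs, found by Ensembl identifier through the GENCODE M21 annotation, and all 8 of the 50600 genes in the tables were present once. RNA was sequenced from cortical TECs (cTECs, EpCAM+ CD45- UEA1-) and medullary TECs (mTECs, EpCAM+ CD45- UEA1+), with 28 samples of each and each sample taken from a single mouse. All females were of the B6.SJL strain. The pregnant ones had been mated with BALB/cJ males, and their pups were removed at birth, so every postpartum sample comes from a female that did not nurse. Age-matched non-pregnant females (NPC), females at day 18 of gestation (D-2), and females at D0, D3, D6 and D12 after delivery gave 3 samples per cell type each, while 6 further days up to D10 (D1, D2, D4, D5, D8 and D10) and 4 later days (D16, D20, D24 and D28) gave 1 each. D0 to D12 is called early (18 samples per cell type) and D16 to D28 late (4 samples per cell type).

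Keratins are the intermediate filament proteins of epithelial cells. A filament is built from pairs of an acidic type I and a basic type II keratin, so each cell needs genes of both types. Among the simple keratins, which are typical of single-layered epithelia, *Krt8* and *Krt7* are type II and *Krt18* and *Krt19* type I, with *Krt18* the usual partner of *Krt8*. Among the basal keratins, which are typical of the lowest layer of stratified epithelia, *Krt5* is type II and *Krt14*, *Krt15* and *Krt17* type I, with *Krt14* the usual partner of *Krt5*. In the thymus, antibodies to KRT8 and KRT18 are used to mark the cortex, and those to KRT5 and KRT14 the medulla, while cells positive for both KRT8 and KRT5 are found at the border between cortex and medulla.

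The genes lie in the 2 keratin clusters of the mouse genome (GRCm38, GENCODE M21 coordinates). The cluster on chromosome 15 holds *Krt7* (chr15:101411043-101430313, plus strand), *Krt5* (chr15:101707070-101712898, minus strand), *Krt8* (chr15:101996698-102004482, minus strand) and *Krt18* (chr15:102028180-102032027, plus strand). *Krt18* is the type I gene that stands among type II genes: it starts 23697 bases from the start of *Krt8*, with which it points away. The cluster on chromosome 11 holds *Krt15* (chr11:100131758-100135928), *Krt19* (chr11:100140810-100148665), *Krt14* (chr11:100203162-100207548) and *Krt17* (chr11:100256217-100261029), all on the minus strand. Keratin genes resemble each other, and reads could be shared between them, but the standard deviation that the read assignment itself reported for each count was at most 0.114% of the count in every member.

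The sequences ahead of *Krt8*, *Krt18*, *Krt7* and *Krt5* are shown because transcripts of these 4 genes were correlated with each other over the mTEC samples, and because *Krt8* and *Krt18* are the divergent pair. *Krt17* was correlated with all 4 over the same samples (Pearson r from 0.67 to 0.87), but no window of it is shown. Each is the RefSeq promoter window (GRCm38.p6) up to the first base that GENCODE M21 annotates as exon, 5′ to 3′ on the strand of the gene. The window of *Krt7* lies inside the span of the gene, between annotated exons and just ahead of the exon at which the window ends, since other transcripts of *Krt7* start further upstream. Capitals mark GACGC, the core of the sites bound by FOXN1, on either strand.
Krt8, chr15:102004483-102004592, minus strand: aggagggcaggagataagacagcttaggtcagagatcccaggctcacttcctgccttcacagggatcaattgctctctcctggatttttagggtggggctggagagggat
Krt18, chr15:102027966-102028179, plus strand: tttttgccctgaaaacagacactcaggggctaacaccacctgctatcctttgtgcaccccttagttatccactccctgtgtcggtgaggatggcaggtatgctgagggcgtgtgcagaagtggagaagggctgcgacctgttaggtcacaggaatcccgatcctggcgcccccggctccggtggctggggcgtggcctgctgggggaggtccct
Krt7, chr15:101412153-101412234, plus strand: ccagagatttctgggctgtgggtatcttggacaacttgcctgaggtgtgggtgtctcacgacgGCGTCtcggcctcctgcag
Krt5, chr15:101712899-101713155, minus strand: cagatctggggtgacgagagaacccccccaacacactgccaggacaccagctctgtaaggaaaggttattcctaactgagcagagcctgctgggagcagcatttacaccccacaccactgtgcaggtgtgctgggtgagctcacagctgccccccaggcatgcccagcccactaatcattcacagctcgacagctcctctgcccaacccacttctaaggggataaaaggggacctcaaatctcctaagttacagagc
Over the whole windows of 300 bases, which run past the starts, GACGC was found once each in *Krt7* and *Krt5* and not in *Krt8* or *Krt18*. It was found in 27.2% of all 32841 such windows. Windows for *Krt15*, *Krt17* and *Krt19* were not used here. TATAAA was found only in the *Krt8* window, on both strands in overlapping matches within the annotated exon (13.6% of windows), GGGCGG only in the *Krt7* window (35.7%), and TGANTCA in none of these windows (7.81%). The window of *Krt14* lies inside the gene, ahead of a short transcript, and is not shown.

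Levels are given as FPKM, which divides by transcript length and by depth and so allows genes to be compared. Libraries held between 4561208 and 108547384 assigned fragments (median 17972566). The sort was reflected in the marker genes. The summed level of 10 cTEC markers was 1789 to 15858 FPKM in cTECs and 1027 to 6585 FPKM in mTECs, and that of 12 mTEC markers 1892 to 6491 FPKM in cTECs and 8354 to 16079 FPKM in mTECs. The 2 sums overlapped for the cortical markers, whose lowest values in cTECs were all at D-2. The cTEC samples of D0 (3316 to 4322 FPKM), D1 (5606), D24 (5235) and D28 (5881) also lay below the highest mTEC sum. Summed markers of thymocytes were 38.5 to 448 FPKM in cTECs and 25.7 to 182 FPKM in mTECs. Summed markers of macrophages and dendritic cells were 4.48 to 48.95 FPKM in cTECs and 26.1 to 239 FPKM in mTECs. By the rule given below, 9 of the 13 tested were called as higher and 1 as lower in mTECs. The rule called 16.5% of all genes as higher and 4.7% as lower. All 13 passed the expression filter in mTECs and 9 in cTECs. The direction of those that passed only in mTECs, where they were higher, is no separate result. Summed endothelial markers were 2.82 to 30.8 FPKM in cTECs and 4.63 to 36.7 FPKM in mTECs. In cTECs, 5 of the 15 macrophage and dendritic cell markers and 3 of the 10 endothelial markers had a median of at least 1 FPKM. In mTECs these were 8 and 4. The median of *Adgre1*, *Itgax* and *Cdh5* was 0 in cTECs, while that of *Lyz2* was 8.43 FPKM and that of *Ly6c1* 4.575 FPKM. The part of these markers in the differences between the cell types was not tested. Among the libraries, D3 cTEC replicate 2 and D3 mTEC replicate 1 had the fewest genes detected (10474 and 11985), the lowest median correlation with their own cell type (0.752 and 0.757), and no *Krt15* fragment.

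The 8 keratins together made up 0.87% to 2.53% of all FPKM in cTECs and 0.982% to 2.48% in mTECs, so the amount of keratin mRNA did not separate the cell types. Its composition did. The 4 simple keratins took 52.1% to 79.8% of the keratin sum in cTECs (median 70.5%) and 32.7% to 49.6% in mTECs (median 40.6%), and not a single sample of 56 fell in the range of the other cell type. Among the replicated time points of cTECs the simple share was lowest at D-2, with 52.1%, 59.2% and 59.5% in the 3 mice, and highest at D6, with 73.8%, 78.3% and 79.8%. By D28 it had gone back to 55.6% in the only cTEC sample of that day. In mTECs the share was 44.1%, 37.7% and 41.9% in the 3 mice at D-2, which overlapped the 42.4%, 49.6% and 45.7% at D6. It was 38.4% ± 1.69 (SD, n = 3) at D0 and 45.9% ± 3.62 (SD, n = 3) at D6, and 32.7% at D28. These shares are descriptions, since a ratio over chosen genes was not tested. In bulk samples, fewer cells of a type and less RNA per cell cannot be told apart.

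**Figure D1:**
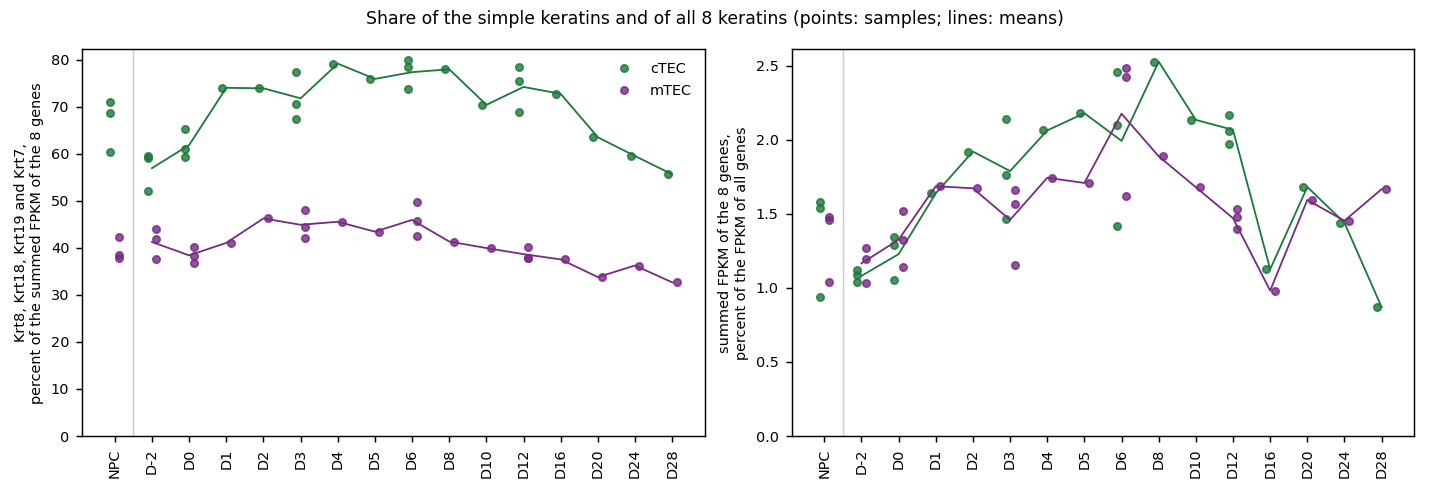
Share of the summed FPKM of the 8 keratins that came from *Krt8*, *Krt18*, *Krt19* and *Krt7* (left, percent) and summed FPKM of the 8 keratins as percent of the FPKM of all genes (right), by time point; points are samples, lines join the means from D-2 on, and NPC stands apart. The cTEC samples lie at 52.1% or above and the mTEC samples at 49.6% or below on the left, while the 2 cell types overlap on the right.

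The first question was how the keratins divide between the cortical and the medullary epithelium. Over all 56 samples, with time point as a term, *Krt14* and *Krt17* were higher in mTECs and *Krt19* was higher in cTECs, each by at least 2-fold with an adjusted p of at most 0.01, the rule by which a gene is called here (limma-voom, Benjamini-Hochberg adjustment over the 18394 genes tested). So 3 of 8 members were called, while the rule called 21.2% of all genes, 16.5% as higher and 4.7% as lower in mTECs. Another 4 members passed the adjusted p but stayed under 2-fold: *Krt5* and *Krt7* were higher in mTECs, and *Krt8* and *Krt18* higher in cTECs. *Krt15* was the exception, with a log2 fold change of 0.11 ± 0.18 (SE, adjusted p = 0.643).

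*Krt14*, the type I partner of *Krt5* in basal cells, showed the largest difference of the 8. It ran from 149 to 731 FPKM in cTECs (median 286) and from 636 to 1339 FPKM in mTECs (median 1007), so the ranges overlapped only through the highest cTEC sample, at D20, which lay above the lowest 3 mTEC samples, from D3, D16 and D-2. The log2 fold change was 1.80 ± 0.09 (SE, adjusted p = 3.92e-22). In the 26 mice from which both cell types were sequenced, going by the time point and number in the sample titles, *Krt14* was higher in the mTECs of all 26.

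*Krt17*, a type I keratin of basal and stressed epithelium, ran from 549 to 1443 FPKM in cTECs (median 1019) and from 1278 to 2486 FPKM in mTECs (median 2009). It was higher in the mTECs of 26 of 26 mice, and the log2 fold change was 1.03 ± 0.06 (SE, adjusted p = 1.56e-19). This lies at the edge of the 2-fold rule. With the mouse as a block it was 1.00 ± 0.06 (SE) and over only the 36 samples of the replicated time points 0.96 ± 0.08 (SE), and *Krt17* was then not called. *Krt5* ran from 811 to 2390 FPKM in cTECs (median 1621) and from 1442 to 4819 FPKM in mTECs (median 2907). Its log2 fold change was 0.80 ± 0.09 (SE, adjusted p = 8.9e-11), with 25 of 26 mice higher in mTECs. *Krt5* was thus the most abundant keratin of mTECs by median, and it was also present in cTECs at a median level above those of *Krt14* and *Krt17*.

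*Krt19*, a type I keratin of simple epithelia, was the member that most favoured cTECs, at a low level. It ran from 37.9 to 242 FPKM in cTECs (median 90.4) and from 10.6 to 67.9 FPKM in mTECs (median 41.7). The log2 fold change, mTECs over cTECs, was -1.20 ± 0.10 (SE, adjusted p = 4.66e-14), and *Krt19* was lower in the mTECs of all 26 mice. *Krt18* was the most abundant keratin of cTECs, from 1484 to 8188 FPKM (median 4183), against 1050 to 4918 FPKM in mTECs (median 2133). Its log2 fold change was -0.93 ± 0.11 (SE, adjusted p = 4.04e-10). *Krt8* ran from 888 to 3456 FPKM in cTECs (median 2087) and from 848 to 2032 FPKM in mTECs (median 1341), with a log2 fold change of -0.67 ± 0.08 (SE, adjusted p = 4.75e-10). *Krt8* and *Krt18* were each lower in the mTECs of 25 of 26 mice. Neither reached 2-fold.

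*Krt7*, a type II keratin of simple glandular epithelia, differed little: it ran from 187 to 472 FPKM in cTECs (median 322) and from 213 to 592 FPKM in mTECs (median 350), with a log2 fold change of 0.28 ± 0.07 (SE, adjusted p = 0.00114). *Krt15*, a keratin of basal and progenitor cells, was the least abundant, from 0 to 46.3 FPKM in cTECs and from 0 to 39.2 FPKM in mTECs. Ordered by their medians, the members ran *Krt18*, *Krt8*, *Krt5*, *Krt17*, *Krt7*, *Krt14*, *Krt19* and *Krt15* in cTECs, and *Krt5*, *Krt18*, *Krt17*, *Krt8*, *Krt14*, *Krt7*, *Krt19* and *Krt15* in mTECs. Among the neighbours whose ranges over samples overlapped were *Krt8* and *Krt5* as well as *Krt7* and *Krt14* in cTECs, and *Krt5* and *Krt18* as well as *Krt18* and *Krt17* in mTECs.

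**Figure D2:**
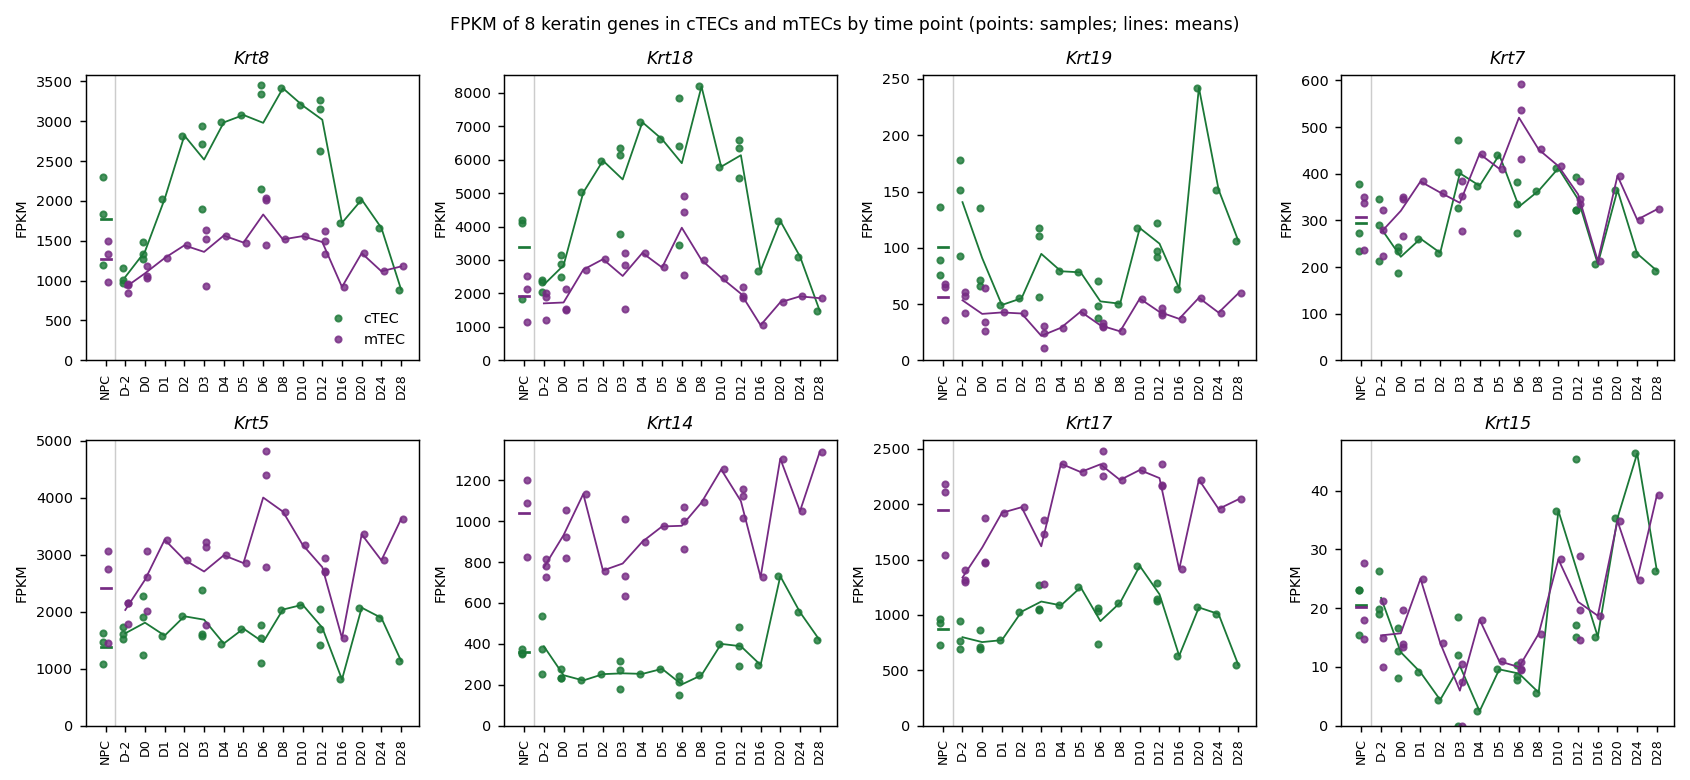
FPKM of each keratin (y axis, linear and different in each panel) by time point in cTECs (green) and mTECs (purple); points are samples and lines join the means from D-2 on. *Krt8* and *Krt18* of cTECs form an arch from D-2 to D28 with 3456 and 8188 FPKM as their highest values, and *Krt14* and *Krt17* of mTECs lie above those of cTECs at each of the 16 time points.

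At the 6 time points with 3 samples per cell type, the cell types were compared within 1 fit of 36 samples. *Krt14* was called as higher in mTECs at all 6, with log2 fold changes from 1.21 ± 0.25 at D-2 to 2.59 ± 0.25 at D6 (SE), and its groups did not overlap at any of them. *Krt17* was called at NPC, D0 and D6, with 1.13 ± 0.17, 1.10 ± 0.17 and 1.35 ± 0.16 (SE). Its 3 mTEC samples lay above its 3 cTEC samples at the other time points too. *Krt5* was called only at D6 (1.42 ± 0.27, SE, adjusted p = 0.000504). There the cTEC samples had 1759, 1535 and 1103 FPKM and the mTEC samples 2788, 4410 and 4819 FPKM. *Krt19* was called as lower in mTECs at D-2, D0 and D12, and the 3 mTEC samples lay below the 3 cTEC samples at all 6. Of all genes, 7.16% to 20.6% at a time point were higher in mTECs without overlap and 5.88% to 15.0% lower. *Krt8* and *Krt18* were called only at D12, with -1.15 ± 0.20 and -1.76 ± 0.31 (SE). At D12 *Krt18* stood at 6585, 6348 and 5464 FPKM in cTECs and at 2183, 1871 and 1922 FPKM in mTECs. At D-2 the same gene stood at 2388, 2056 and 2340 FPKM in cTECs and at 2027, 1194 and 1887 FPKM in mTECs, a log2 difference of -0.42 ± 0.35 (SE, adjusted p = 0.627).

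The number of members called was 2 of 8 at NPC, where the rule called 5.69% of all genes, and 2 at D-2, where it called 1.87%. D0 and D6 had 3 members called each (3.03% and 4.34% of all genes), D3 had 1 (1.48%) and D12 had 4 (10.4%). At D3 the groups held the libraries of few detected genes. Several calls depended on a single sample. *Krt17* was not called at NPC without NPC cTEC replicate 5 (log2 fold change 0.96), nor at D0 without D0 mTEC replicate 1 (0.99). *Krt19* was not called at D0 without D0 cTEC replicate 1 or 4 or any of the 3 mTEC samples, with log2 fold changes from -1.69 to -1.08. At D-2, *Krt14* was not called without cTEC replicate 1 or 4 or mTEC replicate 4 (0.95 to 1.16), and *Krt19* not without cTEC replicate 1 or 3 or mTEC replicate 4 (-1.37 to -1.18). *Krt5* was called at NPC without NPC mTEC replicate 4 (1.12).

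**Figure D3:**
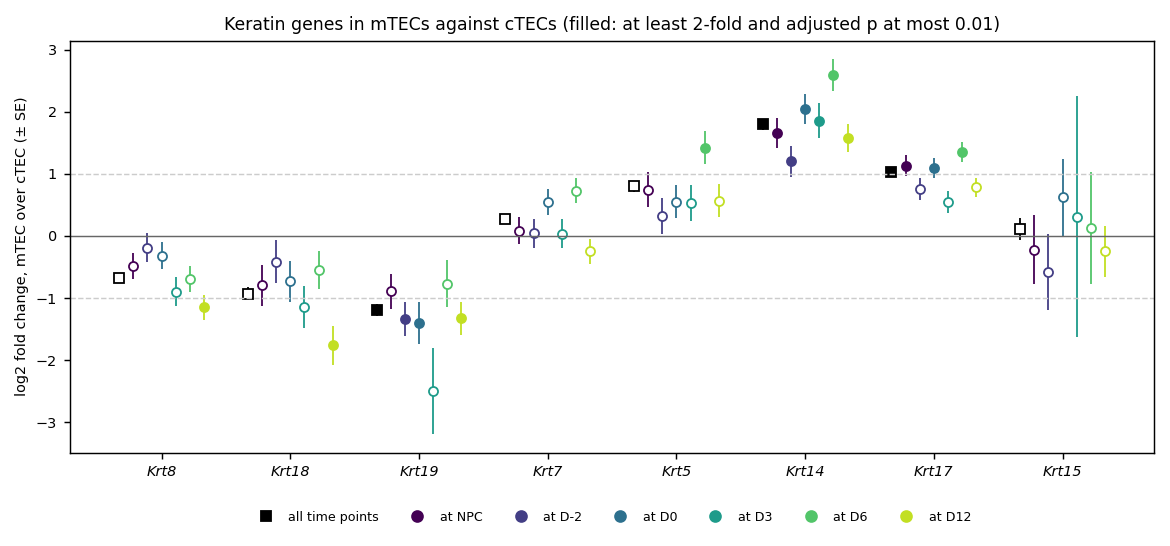
Log2 fold change of mTECs over cTECs (y axis) for each keratin, over all time points (black squares) and at each of the 6 time points with 3 samples per cell type (circles); bars are standard errors, filled symbols mark at least 2-fold with an adjusted p of at most 0.01, and dashed lines mark 2-fold. *Krt14* is filled at every time point, *Krt8* and *Krt18* only at D12.

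The next comparison asked what late gestation does to the keratins relative to non-pregnant females. At D-2 against NPC, 0 of 8 members were called in either cell type, where the rule called 0% of all genes in cTECs and in mTECs by limma-voom. Of all genes, 1564 in cTECs and 2267 in mTECs had an unadjusted p under 0.05. The edgeR test called 0 in both, and DESeq2 called 90 and 171. *Krt8* in cTECs was the only member with an unadjusted p under 0.05, and no member of mTECs had one. It stood at 1837, 2303 and 1195 FPKM in NPC and at 1159, 1009 and 969 FPKM at D-2, so the groups did not overlap, and the log2 fold change was -0.68 ± 0.25 (SE, adjusted p = 0.472). In mTECs it stood at 1498, 1337 and 981 FPKM in NPC and at 954, 848 and 942 FPKM at D-2, again without overlap, with -0.38 ± 0.23 (SE, adjusted p = 0.51). *Krt14* and *Krt17* of mTECs did not overlap either, both lower at D-2, with adjusted p of 0.602 and 0.422. Of all genes, 7.56% in cTECs and 8.16% in mTECs were lower at D-2 without overlap. The edgeR and DESeq2 tests called no member in these 2 comparisons. The tests of a difference between cell types in this change called 0 of 8 members by limma-voom, edgeR or DESeq2, and no member had an unadjusted p under 0.05. The rule called 0% of all genes there.

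The involuted thymus regrows after delivery, and the comparison of D6 with D-2 set a day of that regrowth against gestation day 18, before delivery. In cTECs, *Krt8* rose from 1159, 1009 and 969 FPKM at D-2 to 3456, 3336 and 2148 FPKM at D6, a log2 fold change of 1.44 ± 0.21 (SE, adjusted p = 0.00602). It was the only member called by limma-voom or by edgeR, while limma-voom called 1.34% of all genes, and DESeq2 called 5 members, *Krt8*, *Krt18*, *Krt14*, *Krt15* and *Krt19*. The call of *Krt8* needed nearly all samples: it was lost without D6 cTEC replicate 2 or 4 and without any of the 3 D-2 samples, with log2 fold changes from 1.29 to 1.49, and it held only without D6 cTEC replicate 5. *Krt18*, its partner, stood at 2388, 2056 and 2340 FPKM at D-2 and at 7832, 6409 and 3441 FPKM at D6, with 1.26 ± 0.28 (SE, adjusted p = 0.0319). The groups of both genes did not overlap, which held for 12.6% of all genes in this direction. D6 cTEC replicate 5 was the low sample for both.

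The type I genes *Krt14*, *Krt15* and *Krt19* of cTECs lay on the other side. *Krt19* stood at 178, 151 and 92.3 FPKM at D-2 and at 48.3, 70.9 and 37.9 FPKM at D6 (-1.43 ± 0.28, SE, adjusted p = 0.0193). *Krt15* stood at 19.0, 26.3 and 19.9 FPKM at D-2 and at 7.83, 10.3 and 8.47 FPKM at D6 (-1.36 ± 0.31, SE, adjusted p = 0.0333). *Krt14* stood at 372, 538 and 253 FPKM at D-2 and at 149, 211 and 243 FPKM at D6 (-0.99 ± 0.29, SE, adjusted p = 0.0765). All 3 were lower at D6 in every sample, as were 12.3% of all genes, and all 3 missed the threshold. *Krt5*, *Krt17* and *Krt7* of cTECs had log2 fold changes between -0.22 and 0.23. Over the same days the summed cTEC markers of cTECs went from 1789 to 3230 FPKM at D-2 to 14287 to 15858 FPKM at D6, and their summed mTEC markers from 3903 to 6491 FPKM to 1892 to 2634 FPKM. Summed thymocyte markers were 39.7 to 48.9 FPKM at D-2 and 124 to 158 FPKM at D6. The part of these markers in the keratin values was not tested.

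In mTECs, 0 of 8 members were called and 0.299% of all genes were. All 8 had an unadjusted p under 0.05, as had 3596 of the 17743 genes tested. The edgeR test called 0 and DESeq2 called 1, *Krt18*. *Krt8* stood at 954, 848 and 942 FPKM at D-2 and at 1452, 2032 and 2007 FPKM at D6, with a log2 fold change of 1.00 ± 0.16 (SE, adjusted p = 0.0151). *Krt17* stood at 1294, 1312 and 1409 FPKM at D-2 and at 2255, 2343 and 2486 FPKM at D6 (0.84 ± 0.12, SE, adjusted p = 0.0117). *Krt5* stood at 2156, 1785 and 2151 FPKM and at 2788, 4410 and 4819 FPKM (0.97 ± 0.21, SE, adjusted p = 0.0428). *Krt18*, *Krt7* and *Krt14* were also higher at D6 in every sample, and *Krt19* lower in every sample. The groups of those 7 members did not overlap, against 10.9% and 12.9% of all genes higher and lower without overlap. The summed cTEC markers of these mTEC samples moved as well, from 1037 to 1949 FPKM at D-2 to 3545 to 6585 FPKM at D6, with 2 of 10 called as higher, *Prss16* and *Tbata*. D6 mTEC replicates 2 and 4, which had the 2 highest values of *Krt5* at D6, also had the 2 highest sums of cTEC markers among the 28 mTEC samples (6585 and 4845 FPKM). The part of these markers in the D6 values was not tested.

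The samples of *Krt14* moved in opposite directions in the 2 cell types, though neither change was called. From D-2 to D6 it was lower in every cTEC sample and higher in every mTEC sample. In mTECs it stood at 783, 727 and 813 FPKM at D-2 and at 1003, 862 and 1068 FPKM at D6. The log2 fold change there was 0.36 ± 0.14 (SE, adjusted p = 0.192). The test of a difference between cell types in this change gave 1.36 ± 0.34 on the log2 scale (SE, adjusted p = 0.176), and that for *Krt5* 1.16 ± 0.29 (SE, adjusted p = 0.177). Neither was called. In this test 0 of 8 members were called by limma-voom, edgeR or DESeq2, 4 had an unadjusted p under 0.05, and 0.00544% of all genes were called. For *Krt18* the difference was -0.06 ± 0.42 (SE, adjusted p = 0.971).

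**Figure D4:**
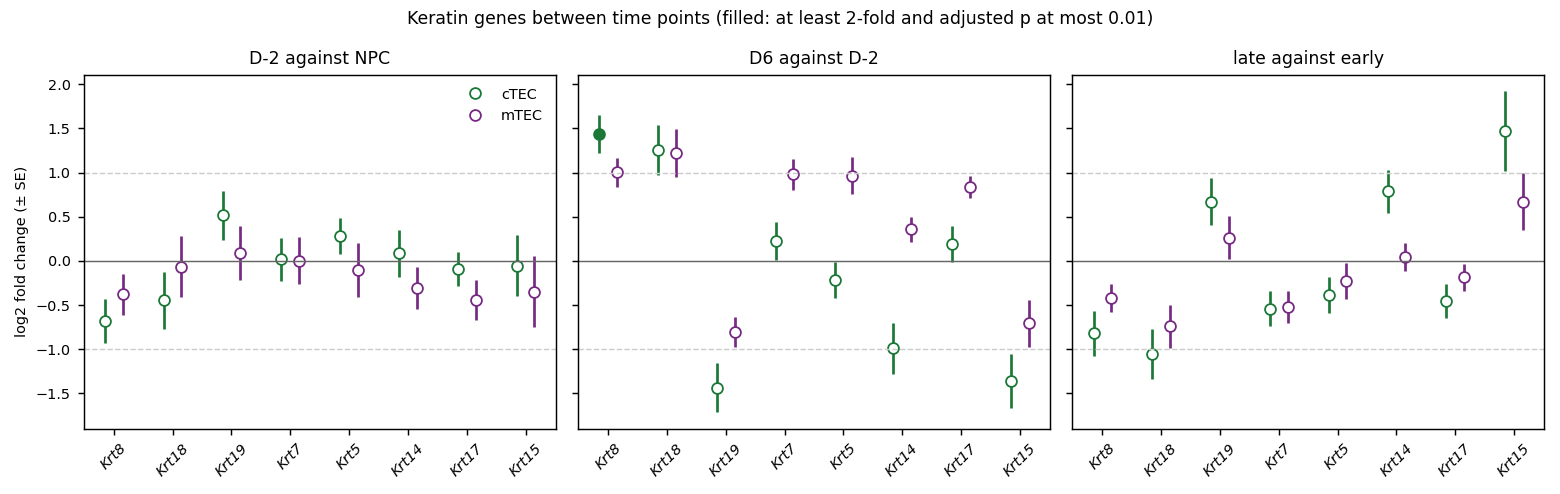
Log2 fold change of each keratin (y axis) for pregnancy (D-2 over NPC), regrowth (D6 over D-2) and the late over the early samples, in cTECs (green) and mTECs (purple); bars are standard errors, filled symbols mark at least 2-fold with an adjusted p of at most 0.01, and dashed lines mark 2-fold. The only filled symbol is *Krt8* of cTECs at D6 against D-2, at 1.44.

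A test of any difference among the 6 time points with 3 samples called 1 of 8 members in cTECs, *Krt8* (adjusted p = 0.000605), where an adjusted p of at most 0.01 called 2.47% of all genes. In mTECs it called 0 of 8 and 0.355% of all genes. There 7 members and 3185 of all genes had an unadjusted p under 0.05, edgeR called 0 and DESeq2 called 3. *Krt18* of cTECs had an adjusted p of 0.0148. Ordered by level, *Krt8* of cTECs ran from 1046 ± 99.98 FPKM at D-2 over 1366 ± 109 at D0, 1778 ± 556 in NPC, 2519 ± 549 at D3 and 2980 ± 723 at D6 to 3019 ± 341 FPKM at D12 (SD, n = 3). D-2 and D0 were the only neighbours in that order whose samples did not overlap. *Krt18* ran in the same order, from 2261 ± 179 FPKM at D-2 to 6133 ± 591 FPKM at D12 (SD, n = 3). The single samples fell along the same course: *Krt8* of cTECs was 2026 FPKM at D1, 2821 at D2, 2985 at D4, 3078 at D5, 3414 at D8 and 3198 at D10.

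For *Krt17* of mTECs the order was D-2, D0, D3, NPC, D12 and D6, from 1338 ± 61.9 to 2361 ± 117 FPKM (SD, n = 3), and D-2 lay below the samples of D0 without overlap. Among the 6 replicated time points, *Krt7* of mTECs was highest at D6, at 520 ± 82.0 FPKM (SD, n = 3), above the samples of the next one in order, D12. The single samples of D4 and D8, with 443 and 452 FPKM, lay above the lowest D6 sample, 431 FPKM. *Krt5* of cTECs was the flattest, with means from 1389 to 1860 FPKM and every neighbour overlapping.

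The last comparison set the 4 samples of D16 to D28 against the 18 of D0 to D12 in each cell type. None of the 8 members was called in cTECs, where 1.41% of all genes were, or in mTECs, where 0.062% were. In cTECs 7 members and 4310 of all 15845 genes tested had an unadjusted p under 0.05, and edgeR and DESeq2 called 0. *Krt18* came nearest, with 2489, 6048 and 8188 FPKM as its lowest, median and highest early values and 2679, 4167, 3103 and 1484 FPKM at D16, D20, D24 and D28, a log2 fold change of -1.05 ± 0.28 (SE, adjusted p = 0.0189). *Krt8* stood at 1725, 2017, 1661 and 888 FPKM on those days, against 1274, 2882 and 3456 FPKM as its lowest, median and highest early values (-0.82 ± 0.25, SE, adjusted p = 0.0389). *Krt15* and *Krt14* lay the other way, with 1.47 ± 0.45 and 0.79 ± 0.24 (SE, adjusted p = 0.0384 and 0.038). *Krt14* of cTECs stood at 297, 731, 555 and 417 FPKM on the 4 late days and at 149, 252 and 484 FPKM as the lowest, median and highest early values. The early and late ranges overlapped for all 8 members in both cell types.

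In mTECs 4 members and 3541 of all genes had an unadjusted p under 0.05, and edgeR and DESeq2 called 0. *Krt18* there stood at 1050, 1735, 1912 and 1858 FPKM on the late days, with -0.74 ± 0.24 (SE, adjusted p = 0.092). The test of a difference between cell types called 0 of 8 members by limma-voom, edgeR or DESeq2 and 0.00544% of all genes, and only *Krt14* had an unadjusted p under 0.05 (-0.76 ± 0.28, SE, adjusted p = 0.327). The D16 samples held the lowest values of all 28 for *Krt7* and *Krt18* of mTECs, 213 and 1050 FPKM, and for *Krt5* of cTECs, 811 FPKM. In cTECs the summed cTEC markers were 5235 to 15230 FPKM in late samples and 3316 to 15858 FPKM in early ones, and summed fibroblast markers 324 to 714 FPKM and 96.5 to 376 FPKM. *Dcn*, a matrix proteoglycan with up to 621 FPKM in cTECs, made up most of that sum. Over all cTEC samples *Col3a1*, *Postn* and *Fbln1* reached 76.9, 33.4 and 31.1 FPKM, while *Pdgfra* stayed at or below 1.06 FPKM. Of the 8 fibroblast markers tested, 7 were higher in late cTECs and 1, *Dcn*, was called, with a median log2 fold change of 1.30 against -0.041 over all genes. Of 12 mTEC markers in the same comparison, 9 were higher and 3 lower, and *Aire*, *Cd80* and *Ctss* were called as higher (median 0.70). The part of these markers in the late values was not tested.

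Across the 28 cTEC samples, *Krt8* and *Krt18* were the most tightly linked pair (Pearson r = 0.96, Spearman rho = 0.95, permutation test with 100000 resamples, two-sided, adjusted p = 4e-05 and 5.09e-05, from p = 1e-05, the smallest those resamples can give). Without the 2 samples farthest from the median of *Krt8* r was 0.96, and within time points, over the 18 replicated samples, it was 0.94. Of the 28 pairs in each cell type, 56 in all, 10 in cTECs and 14 in mTECs had an adjusted Pearson p of at most 0.05. Samples of a time point share that time point, so these p-values count points that are not fully independent.

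In cTECs *Krt8*, *Krt18*, *Krt7* and *Krt17* were linked to each other, with r between 0.71 and 0.96. *Krt5* was linked to *Krt17* (r = 0.67, rho = 0.56, adjusted p = 0.0004 and 0.00578), and with *Krt18* it passed by value and not by rank (r = 0.46, rho = 0.33, adjusted p = 0.0299 and 0.142). *Krt14* was tied to *Krt15* (r = 0.73, rho = 0.85, adjusted p = 4e-05 and 5.09e-05) and to *Krt19* (r = 0.74, rho = 0.73, adjusted p = 0.000112 and 0.000172). Within time points r of *Krt14* and *Krt19* was 0.26, while *Krt19* had 0.60 with *Krt7* and 0.47 with *Krt17*. Between *Krt18* and *Krt14* r was -0.36 (rho = -0.36, adjusted p = 0.107 and 0.109). The usual partners *Krt5* and *Krt14* were not linked in cTECs (r = 0.14, rho = 0.16, adjusted p = 0.567 and 0.495), while in mTECs they were (r = 0.58, rho = 0.60, adjusted p = 0.00283 and 0.00288). Whether r differs between the cell types was not tested.

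In mTECs *Krt5* was linked to 3 of the 4 simple keratins: r was 0.83 with *Krt8*, 0.84 with *Krt18* and 0.90 with *Krt7*, and each adjusted p was 4e-05. With *Krt19*, the other simple keratin, r was -0.065 and rho -0.044 (adjusted p = 0.781 and 0.87). *Krt5* was also linked to the basal keratin *Krt17* (r = 0.79, rho = 0.62, adjusted p = 4e-05 and 0.00144). Spearman's rho for those pairs was 0.73, 0.70 and 0.79, with adjusted p of 9.33e-05, 0.00028 and 5.09e-05. Without the 2 samples farthest from the median of *Krt5* r was 0.82, 0.77 and 0.86, and within time points 0.91, 0.92 and 0.92. *Krt15* and *Krt19* were linked by rank in both cell types (rho = 0.67 in cTECs and 0.68 in mTECs, adjusted p = 0.000404 and 0.00035), and less by value (r = 0.40 and 0.46, adjusted p = 0.0672 in both). Within time points r was -0.14 and -0.20 for that pair. Both values of r moved with the 2 libraries that had no *Krt15* fragment: without them r was 0.69 in cTECs and 0.68 in mTECs (adjusted p = 0.000177 and 0.000105), and within time points 0.37 and 0.69.

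**Figure D5:**
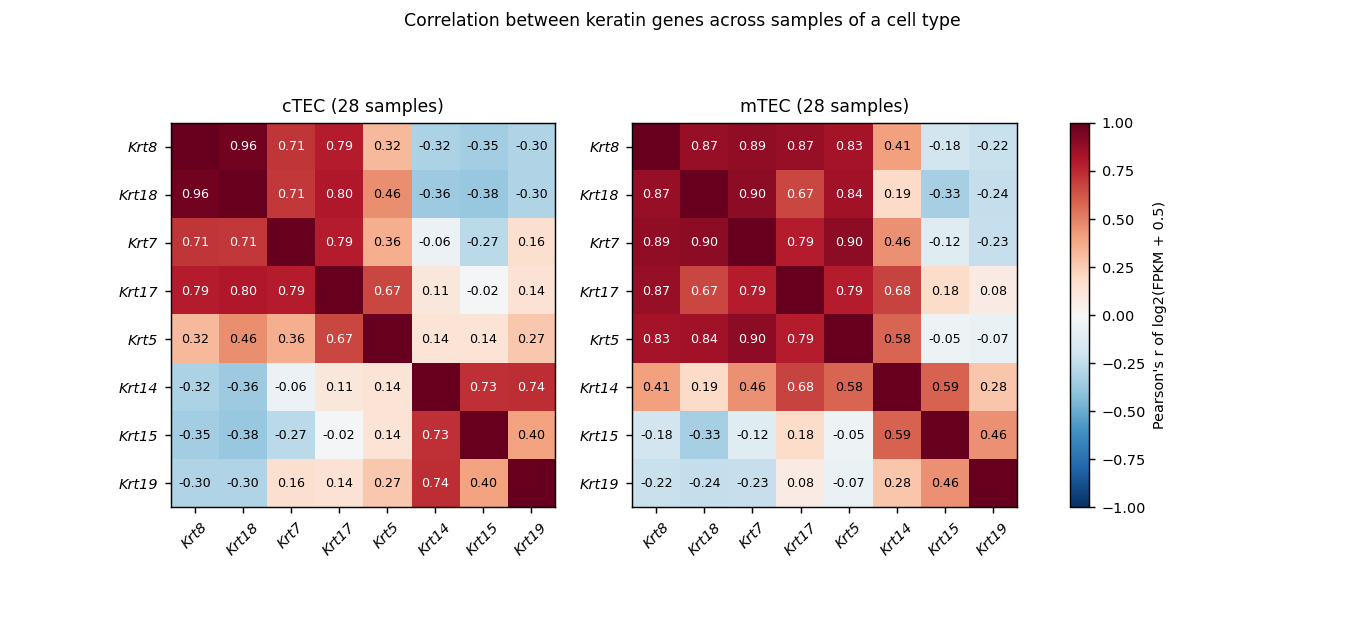
Pearson's r of log2(FPKM + 0.5) between keratins over the 28 cTEC samples (left) and the 28 mTEC samples (right); red is positive, blue negative, and the numbers are r. *Krt8* and *Krt18* reach 0.96 in cTECs, and *Krt5* reaches 0.83 to 0.90 with *Krt8*, *Krt18* and *Krt7* in mTECs.

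Among 13526 genes expressed in both cell types, those whose values over the 56 samples were most like a member, after the mean of each cell type had been taken off, are named as a description. For *Krt18* they were *Foxn1* (r = 0.90), the transcription factor on which TEC differentiation depends, *Bnip3l* (r = 0.89), which acts in mitophagy, and *Dact2* (r = 0.89). For *Krt8* they were *Bnip3l* (r = 0.93), *Mfge8* (r = 0.91), a secreted glycoprotein of apoptotic cell clearance, and *Samd14* (r = 0.91). *Foxn1* itself stood at 74.3 to 109 FPKM at D-2 and at 135 to 314 FPKM at D6 in cTECs. The leading genes were *Col6a2*, a chain of collagen VI (r = 0.835), for *Krt14*, *Reep4* and the desmosome gene *Pkp2* (r = 0.84 both) for *Krt15*, *Cfl1*, which encodes the actin-severing protein cofilin (r = 0.85), for *Krt17*, *Ndufa11*, a subunit of respiratory complex I (r = 0.80), for *Krt7*, *Tmem250-ps* (r = 0.825) for *Krt5*, and *Tmed3* (r = 0.72) for *Krt19*. Depth and the sort are shared by all genes of a sample.

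The other keratins of the list, 22 genes of stratified, cornified or gut epithelium and hair, were far less abundant than *Krt5*, *Krt8* or *Krt18* and lay on the medullary side. Of the 21 tested between mTECs and cTECs, 17 were called as higher in mTECs, 1 as lower and 3 were not called. The rule called 16.5% of all genes as higher and 4.7% as lower in mTECs. The median log2 fold change of the list was 2.74 against 0.03 over all genes. By mean FPKM, 21 of the list passed the expression filter in mTECs and 17 in cTECs. Those that passed only in mTECs entered through the cell type where they were higher, so their direction is no separate result. *Krt73*, *Krt77* and *Krt24* differed most (5.86 ± 0.54, 4.66 ± 0.44 and 4.32 ± 0.49, SE, adjusted p = 6.32e-13, 1.17e-12 and 2.93e-10). *Krt77*, a keratin of eccrine sweat glands, ran from 1.42 to 30.3 FPKM in mTECs and from 0 to 3.95 FPKM in cTECs. *Krt6a* was the one called as higher in cTECs (-1.04 ± 0.21, SE, adjusted p = 3.7e-05). From D-2 to D6, *Krt10*, a keratin of suprabasal epidermis, fell in mTECs from 46.4 ± 15.2 to 5.59 ± 2.48 FPKM (SD, n = 3, log2 fold change -3.01 ± 0.40, SE, adjusted p = 0.00945), the only list gene of 21 called there, and *Krt23* fell in cTECs from 12.8 ± 2.30 to 1.83 ± 0.73 FPKM (SD, n = 3, adjusted p = 0.00849), the only one of 17. *Krt84* rose from early to late cTECs (3.82 ± 0.82, SE, adjusted p = 0.00529). From D-2 to D6 the rule called 0.299% of all genes in mTECs and 1.34% in cTECs, and from early to late 1.41% in cTECs. At D-2 against NPC no list gene was called, and 0% of all genes were in either cell type.

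Between the cell types the rule called 16.5% of all genes as higher and 4.7% as lower in mTECs. Of 15 genes of the desmosome, the junction that anchors keratin filaments between cells, 5 were called as higher in mTECs and 0 as lower, led by *Dsg1a* (4.58 ± 0.35), *Dsc1* (3.92 ± 0.55) and *Pkp2* (1.62 ± 0.20, SE, adjusted p = 1.23e-15, 4.24e-08 and 1.06e-09), and none was called between time points. The median log2 fold change of the 15 was -0.013 against 0.03 over all genes, with 7 positive and 8 negative. All 15 passed the expression filter in mTECs and 14 in cTECs. The direction of a gene that passed only in mTECs is no separate result. Of 12 genes of the hemidesmosome and basement membrane, which anchor basal keratins to the matrix, 2 were lower in mTECs, *Col7a1* (-1.57 ± 0.27) and *Dst* (-1.05 ± 0.07, SE, adjusted p = 3.37e-06 and 9.87e-17), and 0 higher. From early to late, *Col7a1* and *Col17a1* of cTECs rose (2.98 ± 0.42 and 1.96 ± 0.23, SE, adjusted p = 0.000153 and 2.99e-05). There the rule called 1.41% of all genes. Of the 10 other intermediate filament genes, 3 were higher in mTECs, *Des* (3.59 ± 0.25), *Nefl* (2.51 ± 0.41) and *Vim* (2.18 ± 0.10), and 3 lower, *Nefm* (-3.04 ± 0.20), *Gfap* (-1.64 ± 0.36) and *Synm* (-1.31 ± 0.09, SE). All 10 passed the expression filter in mTECs and 9 in cTECs, so the same limit on direction holds.

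Of 12 tested epithelial transcription factors, 4 were called as higher in mTECs and 0 as lower, led by *Tfap2c* (1.95 ± 0.44), *Grhl3* (1.89 ± 0.46) and *Ehf* (1.60 ± 0.12, SE, adjusted p = 0.00023, 0.000542 and 1.44e-16). The same comparison called 16.5% of all genes as higher and 4.7% as lower in mTECs. In cTECs *Klf5* and *Elf3* fell from D-2 to D6 (-2.04 ± 0.29 and -1.30 ± 0.21, SE, adjusted p = 0.00481 and 0.00905), with *Klf5* going from 29.4 ± 9.15 to 7.55 ± 1.60 FPKM (SD, n = 3). The rule called 1.34% of all genes in that comparison. *Foxn1* was lower in late than in early cTECs (-1.28 ± 0.26, SE, adjusted p = 0.00386), where the rule called 1.41% of all genes.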

How the data were processed

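RNA was sequenced from sorted cTECs and mTECs with a stranded polyA kit (1 library per cell type and mouse). The authors trimmed reads with Trimmomatic 0.35, aligned them to GRCm38 with STAR 2.5.1b and quantified genes with RSEM 1.2.28. The annotation release is not given in the sources used here. Each deposited table holds 50600 genes with the RSEM expected count, the TPM, the FPKM and the posterior standard deviation of the count. Levels are the deposited FPKM. The deposited TPM values were used only as an alternative unit in the correlations between members. Ensembl identifiers were matched to GENCODE M21 symbols, and 50376 had a match.

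The expected counts, rounded to integers, were tested with limma-voom (limma 3.58.1, R 4.3.3) after TMM scaling with edgeR 4.0.16, over genes with a mean of at least 0.5 FPKM in the cell type (either cell type in comparisons between them). Calls needed a 2-fold or larger change with p at or under 0.01 after Benjamini-Hochberg adjustment, and tests of any difference among time points only the latter. The edgeR quasi-likelihood test, DESeq2 1.42.0, limma-trend, no expression filter, no TMM scaling, sample quality weights, a looser adjusted p, replicate blocks and leaving out each replicate were alternatives. Correlations used log2(FPKM + 0.5). The scripts were tested on simulated data. Depth was 4561208 to 108547384 expected counts per sample. Groups followed the labels, and each sample comes from 1 mouse.

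The members and lists were chosen with earlier results of these data known. Besides the 8 members, at most the 3 called genes of largest change per list and direction are named, and up to 3 genes most like each member. cTEC and mTEC samples with the same time point and number were taken as from 1 mouse, and the deviations of 16 such pairs from their group means correlated with r between -0.143 and 0.145.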

Additional observations from a re-analysis of the deposited data

Results flagged for a closer look

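*Krt14* was flagged because, from D-2 to D6, its groups separated in opposite directions in the 2 cell types. Every cTEC sample of D6 lay below those of D-2 and every mTEC sample of D6 above those of D-2. That separation is the rule of the flag and no separate result. Of all genes, 12.3% were lower without overlap in cTECs and 10.9% higher in mTECs. The difference of the 2 log2 fold changes, mTECs minus cTECs, was 1.36 ± 0.34 (SE), with a limma-voom adjusted p of 0.177 for *Krt14*, so it did not pass the adjustment over all genes. The adjusted p for *Krt14* was 0.0113 with DESeq2 and 0.14 with edgeR. When each of the 12 samples was left out in turn, the difference ranged from 1.05 to 1.61.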

How the results depend on the processing

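Over all time points, 3 members were called between the cell types under the other tools, scalings and filters and without the 2 libraries with the fewest genes detected. Leaving out those libraries was chosen after seeing the data. With the replicate block by mouse, and over only the 36 replicated samples, 2 were called, since *Krt17* came to 1.00 and 0.96, and the block changed no other comparison between the cell types. For time contrasts samples share only a number (r between -0.099 and 0.071), and the replicate block by number gave 2 members in cTECs from D-2 to D6, as did a fit of the 18 replicated samples alone.

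Counts of members called between the cell types moved as follows. Without the expression filter they were 0 at NPC and D3 and 1 at D-2, D0, D6 and D12. At D-2 edgeR and limma-trend called 1. At D0 edgeR, DESeq2 and limma-trend called 2 each, and at D12 they called 3 each. Among the 8 alternatives other than leaving out a replicate, *Krt19* was not called in 4 at D0 and in 3 at D12. At D3 edgeR, DESeq2 and limma-trend called 2, and an adjusted p of at most 0.05 called 3. Leaving out a replicate gave 1 to 3 at NPC and D0 and 0 to 2 at D-2. In cTECs from D-2 to D6 the count was 0 with limma-trend, 3 without the filter, 4 at an adjusted p of 0.05, 5 with DESeq2, and 0 to 2 with a replicate left out. From early to late in cTECs it was 1 without the filter, 2 at 0.05 and 2 with quality weights. For any difference in cTECs it was 2 without TMM or with quality weights, 3 with DESeq2 or without the filter, and 4 at 0.05. In mTECs from D-2 to D6 it was 1 with DESeq2, 2 at 0.05 and 4 with quality weights. For any difference in mTECs it was 2 at 0.05, 3 with DESeq2 or without the filter, and 5 with quality weights.

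Signs of members that were not called turned as follows. *Krt7* gave -0.25 at D3 with limma-trend, and 0.011 with DESeq2 and 0.048 with limma-trend at D12. *Krt8* of cTECs gave 0.042 and *Krt5*, *Krt17* and *Krt18* of mTECs 0.036, 0.44 and 0.17 from early to late without the filter. With quality weights *Krt19* of cTECs gave -0.19 from early to late, and the differences between cell types in that change were 0.089, 0.56 and 0.60 for *Krt14*, *Krt15* and *Krt19*. With a replicate left out, *Krt15* at D3 ranged from -2.51 (without D3 cTEC replicate 2) to 2.40 (without D3 mTEC replicate 1), *Krt5* of cTECs from D-2 to D6 from -0.38 to 0.0092 (without D6 cTEC replicate 5), and *Krt5* of mTECs from early to late from -0.39 to 0.11 (without D16 mTEC replicate 1). Without the filter the largest voom weight of *Krt17* in mTECs from early to late was 1.24e+08 times the smallest, and with it 1.71 times. The cause of these changes of sign, those without the filter included, was not tested.

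Counts over all genes varied more. In cTECs from D-2 to D6 limma-voom called 213 genes, edgeR 296, DESeq2 760 and limma-trend 5. In mTECs these were 53, 91, 464 and 0. From early to late they were 223, 45, 95 and 1 in cTECs and 11, 2, 20 and 2 in mTECs, and with D12 counted as late 0 and 159.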
